A study of Rattus norvegicus with 4 samples.

Results

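Chaperones and protein folding genes were represented in these data by 42 genes of the 32883 gene IDs in the deposited tables. They were chosen by name from the list of genes transcribed in the male choroid plexus, as all names that start with HSPA, HSPB, HSPD, HSPE, HSPH, HSP90, DNAJ, PDIA, P4HB, CALR, CANX, PPIA, PPIB or FKBP, or with CCT and a digit. The list was at hand as its 1998 highest genes, which end at 57.8 TPM (transcripts per 1000000 transcripts, an abundance that takes the transcript length into account), and genes further down were not analysed here. A high level in the male library was thereby in effect part of the choice, and ratios to that library carry this selection. The lowest members were HSPA4L with 59.9 TPM and CCT6A with 62.3 TPM. By the compartment in which their proteins work, 14 members were placed in the endoplasmic reticulum (ER), 23 in the cytosol (or nucleus, for FKBP3) and 5 in the mitochondrion.

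The study compared the choroid plexus, the epithelium that secretes cerebrospinal fluid, between male and female Sprague Dawley rats, with its sorted epithelial cells and with the kidney proximal tubule, another epithelium that moves much fluid. All rats were 9 weeks old. Whole choroid plexus was pooled from 5 males and from 5 females, epithelial cells were captured from the digested choroid plexus of 10 males by FACS with an antibody against the transporter NKCC1, and proximal tubules were picked by hand from the digested kidneys of 5 males. Each condition thus had 1 pooled library, 4 in all, so no difference below has a replicate check or a test, and the 95% intervals given cover counting error only. The comparisons of the FACS, female and proximal tubule libraries share the male choroid plexus library. The methods take the kidneys from the male rats, so the tubule and male choroid plexus pools may also share animals.

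Expected counts summed to between 23873318 and 28324976 per library. The proximal tubule library stood apart, since 70.7% of its counts lay in the 13 mitochondrially encoded genes (4.32 to 5.34% in the choroid plexus libraries), which left 7352952 counts, and since 670 of the 1998 listed genes had a count of 0 in it (33.5%). The 8 tubule markers at hand ranged in it from 0.47 TPM to 871 TPM (SLC3A1), and SLC3A1 held most of their sum of 952 TPM. With the mitochondrially encoded genes removed and the rest rescaled, 7 of them were higher than in the male library, SLC13A3 barely so (1.69 against 1.65 TPM). SLC22A8 was lower (14.9 against 132 TPM). The tubule library held next to none of the choroidal transthyretin gene TTR (0.07 TPM). Transthyretin transcripts made up 238565 TPM in the male, 285892 TPM in the female and 389655 TPM in the FACS library. The FACS library nevertheless held more transcripts of immune markers than whole tissue, with 2674 TPM against 377 TPM summed over the 5 markers at hand, of which 5 of 5 were higher and none was at 0, led by CD74 (2556 against 345 TPM). Endothelial markers summed to 254 against 171 TPM (4 of 5 higher) and mesenchymal markers to 1270 against 1078 TPM (3 of 4 higher), while 10 of 12 epithelial markers were lower, a share like the 79.1% of all genes and 83% of listed genes that were lower, and 4 of 12 lay above the median ratio of all genes.

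Chaperones bind unfolded or partly folded proteins and release them in cycles that mostly use ATP. In the cytosol the HSP70 proteins work with J-domain partners (DNAJ) and nucleotide exchange factors, pass clients on to HSP90, and leave actin and tubulin to the ring-shaped chaperonin CCT. Secreted and membrane proteins fold in the ER, where the HSP70 protein BiP, the HSP90 protein GRP94, the sugar-binding calnexin and calreticulin, disulfide isomerases and prolyl isomerases act, and where an excess of unfolded protein switches on the unfolded protein response. The choroid plexus epithelium is known for its heavy secretion of transthyretin, which passes through this ER machinery.

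Both arms are known for short promoter motifs, the ER stress element in genes of the unfolded protein response and the heat shock element in genes under heat shock factors. Windows of 250 bases before to 50 bases after the annotated start were taken from RefSeq (assembly GRCr8, another build than that of the deposited counts) for 36 of the 42 members, 12 ER, 20 cytosolic and 4 mitochondrial. FKBP3, DNAJC15, HSP90AA1, DNAJA2, PDIA6 and PDIA3 had no window. The windows were searched on both strands for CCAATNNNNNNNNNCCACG (ER stress element), ATTGGNCCACG (ER stress element II) and GAANNTTCNNGAA (heat shock element). The ER stress element lay in 5 of 12 ER windows, against 22 of all 33469 windows (0.0657%) and 7 of 1641 windows of listed genes (0.427%), and its second form in 1 further ER window, against 17 of all windows (0.0508%). Neither form was found in a cytosolic or mitochondrial window. The stretches that hold them are printed in the direction of the gene, with the fixed letters of the motif in capitals, because 6 of the 12 ER windows hold one. A stretch with CGTGG before ATTGG holds the motif as its reverse complement.
HSPA5, chr3:38452953-38453011, plus strand: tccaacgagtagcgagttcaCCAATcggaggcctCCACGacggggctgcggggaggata
HSP90B1, chr7:23012431-23012489, minus strand: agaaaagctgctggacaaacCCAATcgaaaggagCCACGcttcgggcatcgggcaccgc
HSP90B1, chr7:23012327-23012385, minus strand: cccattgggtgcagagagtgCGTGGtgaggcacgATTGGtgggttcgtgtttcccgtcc
CALR, chr19:40213117-40213173, plus strand: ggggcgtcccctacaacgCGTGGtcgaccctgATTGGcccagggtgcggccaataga
CANX, chr10:35158049-35158107, minus strand: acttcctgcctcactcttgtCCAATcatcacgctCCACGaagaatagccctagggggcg
DNAJC3, chr15:102432514-102432572, plus strand: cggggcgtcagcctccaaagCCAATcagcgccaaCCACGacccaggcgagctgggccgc
DNAJB11 (second form), chr11:91672780-91672830, minus strand: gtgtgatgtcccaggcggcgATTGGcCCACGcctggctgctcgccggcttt

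The heat shock element was found in 4 of 20 cytosolic windows (HSPA8, HSPH1, DNAJA1 and CCT4), in 2 of 4 mitochondrial windows (HSPD1 and HSPE1) and in 0 of 12 ER windows, against 267 of all windows (0.798%) and 0.853% of those of listed genes. HSPD1 and HSPE1 are neighbours transcribed in opposite directions, so their windows overlap and hold the same matches. The stretches below show the members with the motif, again in the direction of the gene and with its fixed letters in capitals. A match is a description of the letters and no evidence that a factor binds there, and a window without a match says only that these letters are not in it.
HSPA8, chr8:50080281-50080333, plus strand: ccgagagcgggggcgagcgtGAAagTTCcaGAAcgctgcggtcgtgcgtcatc
HSPA8, chr8:50080439-50080491, plus strand: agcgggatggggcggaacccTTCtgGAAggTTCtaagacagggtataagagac
HSPH1, chr12:10427312-10427364, plus strand: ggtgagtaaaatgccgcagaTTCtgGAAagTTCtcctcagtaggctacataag
DNAJA1, chr5:60638393-60638433, plus strand: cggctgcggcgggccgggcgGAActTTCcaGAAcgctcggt
CCT4, chr14:101193074-101193102, plus strand: gcgtcgctTTCtgGAAggTTCgtggaggc
HSPE1 (and, on the other strand, HSPD1), chr9:64084242-64084299, plus strand: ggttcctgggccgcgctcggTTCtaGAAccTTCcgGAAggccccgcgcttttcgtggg

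**Figure D1:**
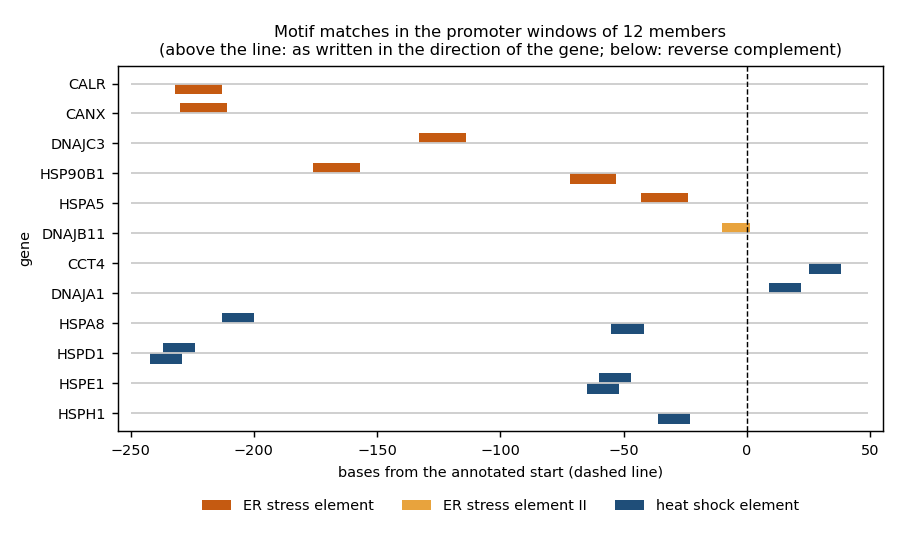
Position of each motif match in bases from the annotated start (x axis) for the 12 members with a match (y axis), with bars above a line for matches as written and below it for the reverse complement. The ER stress elements of 6 ER genes lie between 232 bases before the start (CALR) and the start itself (DNAJB11), and HSP90B1 holds 2 of them.

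In the male choroid plexus, the 42 members summed to 11387 TPM, or 1.14% of the library's transcripts. The cytosolic members held 6048 TPM of this, the ER members 4348 TPM and the mitochondrial members 990 TPM. PPIA (cyclophilin A), a prolyl isomerase of the cytosol, was the highest member and ranked 39 among all genes of the library, and CALR was the highest ER member at rank 104. In bulk tissue, fewer cells of a type and less RNA per cell cannot be told apart, which holds for all differences between libraries below.

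**Figure D2:**
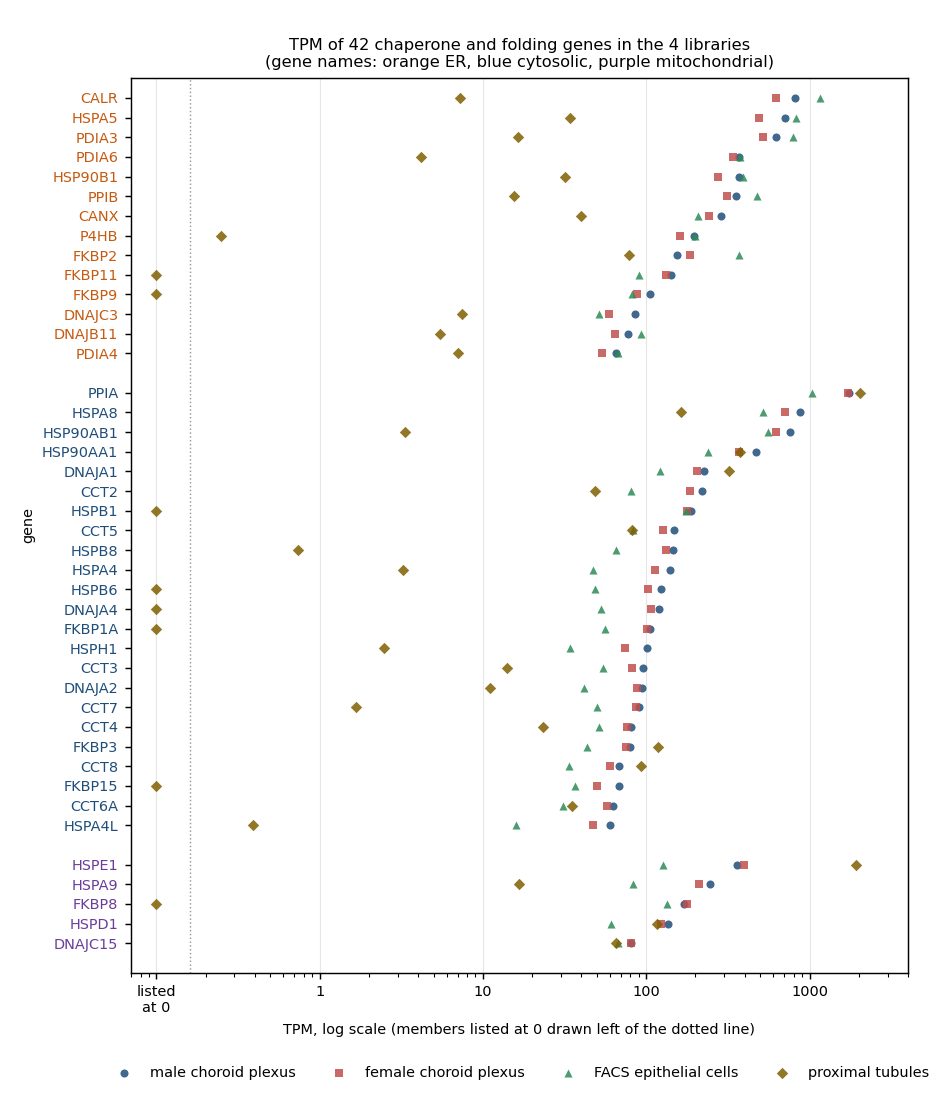
Deposited TPM on a log axis (x) of each member (y, gene names coloured by compartment) in the 4 libraries, with a marker per library and members listed at 0 left of the dotted line. The choroid plexus libraries range from 16.0 TPM (HSPA4L, FACS) to 1736 TPM (PPIA, male), while the proximal tubule library ranges from 0 to 2043 TPM.

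Of the ER chaperones, CALR (calreticulin, ENSRNOG00000003029), which holds glycoproteins by their sugars and binds calcium, had 816 TPM in the male, 621 TPM in the female, 1155 TPM in the FACS and 7.27 TPM in the proximal tubule library. HSPA5 (BiP, the HSP70 of the ER, which also holds the sensors of the unfolded protein response in check, ENSRNOG00000018294) had 702, 488, 821 and 34.0 TPM in the same order, and HSP90B1 (GRP94, the HSP90 of the ER, ENSRNOG00000026963) had 370, 275, 392 and 31.7 TPM. All 3 genes were highest in the FACS library, lower in the female than in the male choroid plexus and lowest in the proximal tubule. CANX (calnexin, the membrane-bound relative of calreticulin, ENSRNOG00000003343) departed from this order, with 287 TPM in the male, 243 TPM in the female, 206 TPM in the FACS and 39.9 TPM in the proximal tubule library. The ratio of CALR to CANX was 2.84 in the male library (2.80 to 2.89), 2.56 in the female library (2.51 to 2.60) and 5.61 in the FACS library (5.52 to 5.69).

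Disulfide isomerases form and reshuffle disulfide bonds in the ER. PDIA3 (ERp57, the partner of calreticulin and calnexin) had 620 TPM in the male, 517 TPM in the female, 794 TPM in the FACS and 16.4 TPM in the proximal tubule library. PDIA6 had 371, 338, 372 and 4.16 TPM, and P4HB (the classical disulfide isomerase, also a subunit of collagen prolyl hydroxylase) had 196, 162, 200 and 0.25 TPM, the last from 21 expected counts. PDIA4 was the lowest at 65.5, 53.4, 67.0 and 7.08 TPM. The spread from the lowest to the highest of the 4 isomerases was 9.47-fold in the male, 9.68-fold in the female and 11.9-fold in the FACS library, so their order and spacing were alike in the choroid plexus libraries.

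The prolyl isomerases of the ER did not share 1 order of libraries. PPIB (cyclophilin B) had 356 TPM in the male, 313 TPM in the female, 478 TPM in the FACS and 15.5 TPM in the proximal tubule library. FKBP2, whose effective length is only 361 bases in the male library, had 155, 185, 371 and 78.0 TPM, and was the one ER member higher in the female than in the male library. FKBP11 had 142, 132, 90.2 and 0 TPM, and FKBP9 had 106, 87.3, 81.2 and 0 TPM. Both were thus lower in the FACS library than in whole tissue, unlike PPIB and FKBP2. The J-domain partners of BiP also parted, since DNAJB11 (ERdj3) had 77.1, 64.6, 92.9 and 5.48 TPM and DNAJC3 (p58IPK, which also restrains the kinase PERK) had 85.4, 59.3, 51.1 and 7.46 TPM. The DNAJC3 value of the proximal tubule rests on 86 expected counts and an effective length of 306 bases, against 1462 bases in the male library.

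In the cytosol, the constitutive HSP70 gene HSPA8 (ENSRNOG00000034066) had 873 TPM in the male, 708 TPM in the female, 521 TPM in the FACS and 162 TPM in the proximal tubule library. HSP90AB1, the constitutive HSP90 gene, had 756, 622, 554 and 3.34 TPM, and HSP90AA1, its stress-inducible paralogue, had 468, 371, 240 and 375 TPM. PPIA had 1736, 1719, 1041 and 2043 TPM. These genes were lower in the FACS library than in whole tissue, by 1.37-fold (HSP90AB1) to 1.95-fold (HSP90AA1). PPIA, HSPA8, HSP90AA1 and the mitochondrial HSPA9 are the 4 members with expected counts that are not whole numbers (by more than 0.005), a sign that reads were shared with similar sequences, and their levels are uncertain to that extent.

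HSP110 proteins exchange the nucleotide of HSP70 and help to dissolve aggregates. HSPA4 had 140 TPM in the male, 114 TPM in the female, 47.0 TPM in the FACS and 3.23 TPM in the proximal tubule library, HSPH1 had 101, 74.6, 34.1 and 2.48 TPM, and HSPA4L had 59.9, 47.0, 16.0 and 0.39 TPM. All 3 showed the same order of libraries, and their sum was 301 TPM in the male library and 97.1 TPM in the FACS library. The ratio of HSPA8 to HSPH1 was 8.68 in the male library (8.47 to 8.90), 9.49 in the female library (9.22 to 9.77) and 15.3 in the FACS library (14.7 to 15.9).

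The J-domain proteins DNAJA1, DNAJA4 and DNAJA2, which load clients onto HSP70, had 227, 119 and 94.0 TPM in the male library and 121, 52.9 and 41.5 TPM in the FACS library. The small heat shock proteins hold unfolding proteins without ATP, and HSPB1, HSPB8 and HSPB6 had 187, 146 and 123 TPM in the male library. In the FACS library HSPB1 had 174 TPM, close to its level in whole tissue, whereas HSPB8 had 65.6 TPM and HSPB6 had 48.9 TPM. Among the immunophilins, FKBP1A (FKBP12, the target of rapamycin and FK506) had 105, 101, 55.6 and 0 TPM, FKBP3 had 79.3, 74.6, 43.1 and 119 TPM, and FKBP15 had 67.7, 50.1, 36.4 and 0 TPM in the male, female, FACS and proximal tubule libraries.

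All levels by library are deposited TPM, in which mitochondrially encoded genes take up most of the proximal tubule library. With these genes removed and the rest rescaled, 6 members listed lower in the tubule than in the male library were higher there, namely FKBP2, HSP90AA1, CCT5, CCT6A, HSPD1 and DNAJC15. Of the mitochondrial members, HSPA9 (mortalin, the HSP70 of the matrix) had 244, 210, 82.6 and 16.6 TPM and HSPD1 (HSP60, the chaperonin) had 136, 123, 60.5 and 116 TPM in that order, HSPD1 with 416 TPM in the tubule against 149 TPM in the male library after rescaling. HSPE1 (HSP10, the lid of the chaperonin) was listed with 360, 395, 127 and 1912 TPM, but on an effective length of 19.9 bases in the male library and on 175, 181, 41 and 761 expected counts, so that its TPM is the least certain of all members. FKBP8, an immunophilin of the outer membrane, had 169, 177, 134 and 0 TPM, and DNAJC15, a J-domain protein of the import motor, had 80.8, 80.3, 67.2 and 65.5 TPM, with 235 TPM in the tubule against 88.2 TPM in the male library after rescaling.

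The FACS library was set against the whole male choroid plexus to see what the sorted epithelial cells carry relative to the tissue. ER folding genes made up a larger part of the members in the sorted cells, and cytosolic ones a smaller part. Summed over members, the ratio of ER to cytosolic TPM was 0.719 in the male library (0.715 to 0.723) and 1.49 in the FACS library (1.478 to 1.498), with 0.659 in the female library (0.655 to 0.664). The summed TPM of the ER members was 4348 in male tissue and 5171 after FACS, and that of the cytosolic members was 6048 and 3476. Mitochondrial members summed to 990 TPM and 471 TPM, of which HSPE1, the least certain member, held 360 and 127 TPM.

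Member by member, the log2 ratio of TPM + 1 (FACS over male) had a median of 0.06 over the 14 ER members, -0.91 over the 23 cytosolic members and -1.16 over the 5 mitochondrial members. All 12686 genes that reached 0.5 TPM in both libraries had a median of -0.59, and that of the listed genes was -0.66. With TTR removed from both libraries and the rest rescaled, the median of all genes was -0.32, and a common rescaling leaves the difference between compartments as it is. The difference of the ER and cytosolic medians was 0.96. TPM was higher in the FACS library for 10 of 14 ER members, 0 of 23 cytosolic members and 0 of 5 mitochondrial members, where 79.1% of all genes and 83% of listed genes were lower. Relative to the median of all genes, 12 of 14 ER members lay above it (46.5% of listed genes) and 21 of 23 cytosolic members below it, the exceptions being FKBP11, DNAJC3, HSPB1 and HSP90AB1. CANX and FKBP9 were lower in TPM and yet above that median, so their direction turns with the scaling.

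**Figure D3:**
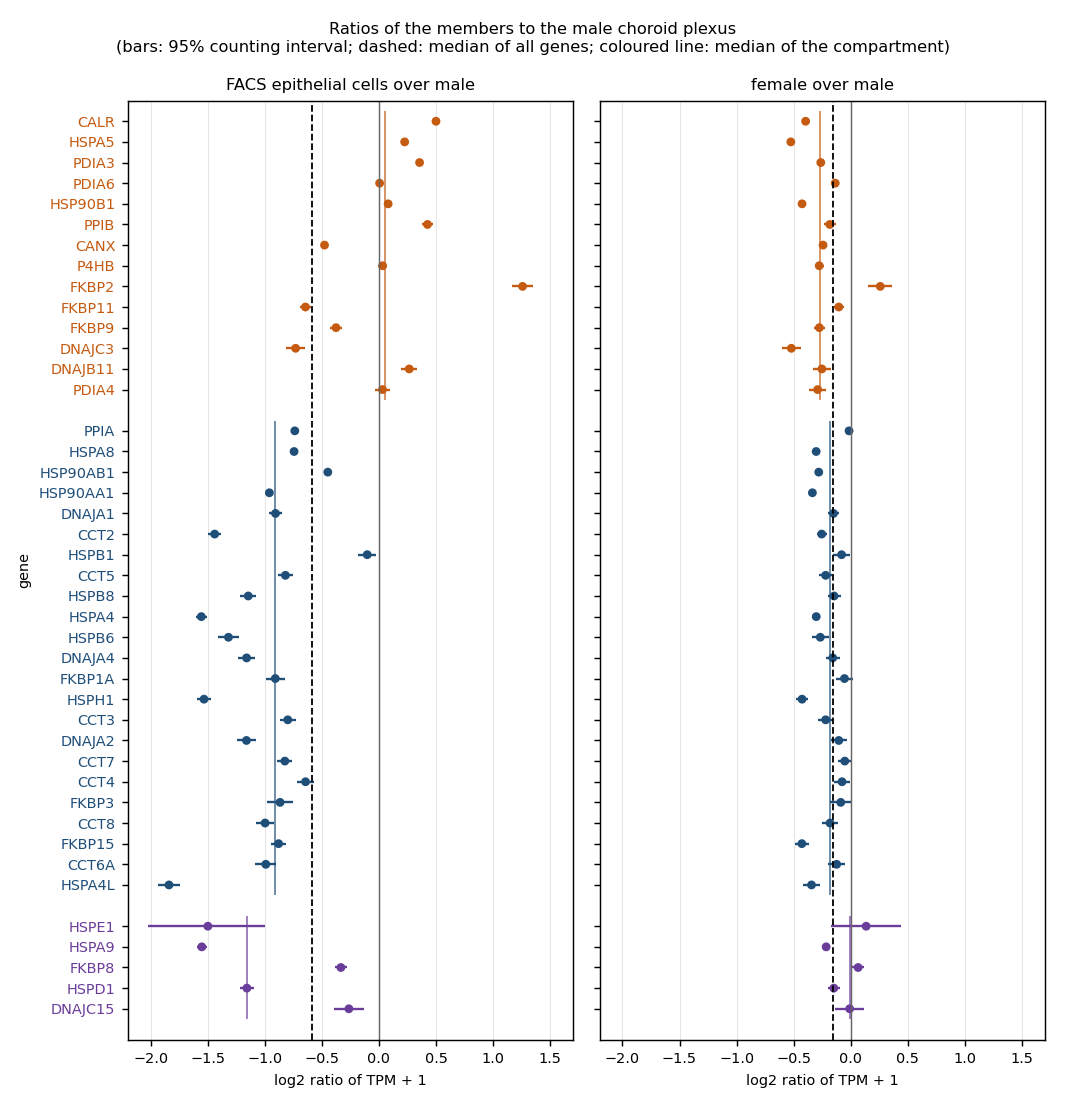
log2 ratio of TPM + 1 to the male choroid plexus (x axis) of each member (y axis, coloured by compartment) for the FACS library (left) and the female library (right), with bars for the 95% counting interval, a dashed line at the median of all genes and a coloured line at the median of each compartment. In the left panel the ER members centre on 0.06 and the cytosolic members on -0.91, and in the right panel on -0.27 and -0.18.

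Few single members passed a 2-fold difference from the median of all genes. At least 2-fold higher in the FACS library were 3 of 42 members, all in the ER, against 9.78% of all genes and 5.93% of listed genes. These were FKBP2 (log2 ratio 1.26, interval 1.17 to 1.35), CALR (0.50, 0.48 to 0.52) and PPIB (0.43, 0.38 to 0.47), the latter pair just past the limit. FKBP2 and PPIB have the shortest effective lengths of the ER members (361 and 708 bases). Spearman's rho between effective length and this ratio was -0.52 within the ER members, -0.36 within the cytosolic members and -0.18 across the listed genes. Relative to listed genes of like length, the difference of the ER and cytosolic medians was 0.997. At least 2-fold lower was 1 of 42, HSPA4L (-1.84, -1.94 to -1.74), against 5.38% of all genes and 6.13% of listed genes. The members' share of 7.14% higher lay between that of listed genes and that of all genes, and their share of 2.38% lower was below both. Without centring on the median, 11 members were at least 2-fold lower and 1 was at least 2-fold higher. The median of all genes is itself below 0 here, and no share of all genes is given for this setting. These last counts therefore show the dependence on centring and nothing particular to the members.

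Within the cytosol the 3 HSP110 genes had the largest differences, with log2 ratios of -1.56 for HSPA4 (-1.60 to -1.51), -1.53 for HSPH1 (-1.60 to -1.47) and -1.84 for HSPA4L, followed by CCT2 at -1.44 (-1.50 to -1.38) and HSPB6 at -1.32 (-1.41 to -1.23). The mitochondrial HSPA9 belonged with these at -1.55 (-1.60 to -1.51). HSPB1 (-0.10, -0.18 to -0.03) and HSP90AB1 (-0.45, -0.47 to -0.43) were the smallest, so the small heat shock proteins spanned most of the range. BiP was set against its cytosolic relative within each library. The ratio of HSPA5 to HSPA8 was 0.804 in the male library (0.793 to 0.816), 0.689 in the female library (0.678 to 0.701) and 1.58 in the FACS library (1.551 to 1.601). The ratio of HSP90B1 to HSP90AB1 was 0.490 in the male library (0.482 to 0.498) and 0.708 in the FACS library (0.696 to 0.719), and that of PPIB to PPIA was 0.205 (0.199 to 0.211) and 0.459 (0.447 to 0.472). These intervals do not meet, but no spread between pools is known.

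The FACS library also differed from the whole-tissue library in its preparation and in other markers. The cells had been digested with collagenase in the warm, which the whole tissue had not. Of 14 early response genes drawn up as a list, only JUND had a name in the lists at hand. It had 419 TPM after FACS against 119 TPM in male tissue. As 1 gene that was already high in undigested tissue, it cannot stand for the others. Immune markers were higher in the FACS library, as given above. The part of digestion, of immune cells and of sorting in the ER and cytosolic ratios was not tested.

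Other genes of the folding pathways, listed by their role, were placed beside the members. Of 15 further ER folding genes, 14 lay above the median of all genes in the FACS library and 6 were at least 2-fold higher relative to it (9.78% of all genes), with a median log2 ratio of -0.02. These 6 were SIL1, the exchange factor of BiP (188 against 99.7 TPM), MANF (278 against 159 TPM), SDF2 (233 against 138 TPM), SDF2L1 (217 against 141 TPM), ERP29 (262 against 183 TPM) and PRKCSH, the beta subunit of glucosidase II (252 against 156 TPM). Of 18 genes of the translocon, signal peptidase and N-glycosylation, 13 lay above that median and 1 was at least 2-fold higher, SSR2 (155 against 100 TPM), with a median log2 ratio of -0.18. Of 8 genes of the unfolded protein response and ER-associated degradation, 5 lay above it and 0 were at least 2-fold higher or lower. There the transcription factor ATF4 had 247 against 190 TPM and XBP1 35.3 against 58.9 TPM, and HERPUD1 had 160 against 155 TPM. Of 11 co-chaperones of the cytosol, with the CCT subunit TCP1 counted among them, 11 had lower TPM and 6 lay above the median of all genes. Their median log2 ratio was -0.57, and STIP1 (HOP, which links HSP70 to HSP90) was the furthest below the median of all genes, with 54.2 against 129 TPM. Of 8 mitochondrial import and exchange genes, 6 lay above that median, with a median log2 ratio of -0.20.

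Female and male choroid plexus were compared to see whether the sexes differ. All 42 members were within 2-fold of the median of all genes, so 0 were called in either direction, against 0.274% of all genes lower and 0.267% higher, and 0.3% and 0.2% of listed genes. The log2 ratio of TPM + 1 (female over male) had a median of -0.27 over the ER members, -0.18 over the cytosolic members and -0.01 over the mitochondrial members, with -0.15 over all 13130 genes that reached 0.5 TPM in both and -0.11 over the listed genes. TPM was lower in the female library for 39 of 42 members (77.4% of all genes and 73.3% of listed genes). Above the median of all genes lay 3 of 14 ER, 10 of 23 cytosolic and 4 of 5 mitochondrial members, against 61% of listed genes.

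Furthest below were HSPA5 and DNAJC3 of the ER. HSPA5 had a log2 ratio of -0.52 (-0.55 to -0.50), DNAJC3 of -0.52 (-0.60 to -0.44), HSP90B1 of -0.43 (-0.45 to -0.40) and CALR of -0.40 (-0.42 to -0.37). In the cytosol, FKBP15 (-0.43, -0.49 to -0.37) and HSPH1 (-0.43, -0.48 to -0.38) lay in the same range. The only members with higher TPM in the female library were FKBP2 (0.26, 0.15 to 0.36), HSPE1 (0.14, -0.17 to 0.44) and FKBP8 (0.07, 0.01 to 0.12), and the interval of HSPE1 includes no difference. Of the 8 genes of the unfolded protein response and degradation, 7 had lower TPM, among them XBP1 (42.9 against 58.9 TPM) and HERPUD1 (125 against 155 TPM), while of the 15 further ER folding genes 12 had lower TPM but with a median log2 ratio of -0.16, next to that of all genes. No further ER folding or response gene was 2-fold from the median of all genes. Cell type markers were mostly lower in the female library as well, where 77.4% of all genes were lower. Of the 12 epithelial markers, 10 were lower, with a median log2 ratio of -0.20 and OTX2 at the 2-fold limit (62.0 against 139 TPM). The 5 immune markers summed to 230 TPM in the female and 377 TPM in male tissue (5 of 5 lower, median log2 ratio -0.59), the endothelial markers had a median of -0.33 (4 of 5 lower) and the mesenchymal markers of -0.32 (4 of 4 lower), and no marker was at 0. Their part in the ER values was not tested.

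Longer transcripts tended to be lower in the female library. Across the 42 members, Spearman's rho between effective length and the log2 ratio was -0.59, and across the 1998 listed genes it was -0.53, all from the same pair of libraries. It was -0.62 within the 23 cytosolic members and -0.19 within the 14 ER members. The ER members had a median effective length of 1856 bases and the cytosolic members of 1720 bases. Taken relative to listed genes of like length, the difference of the ER and cytosolic medians was -0.07, against -0.09 as it stands. The members with an ER stress element of either form, grouped after their values had been seen, had a median log2 ratio of -0.41 (6 genes, -0.52 to -0.24) and the ER members with a window but no such match of -0.23 (6 genes, -0.29 to 0.26). These female ranges overlapped at their ends. In the FACS library the same groups had medians of 0.15 and 0.03 (from -0.73 to 0.50 and from -0.64 to 1.26), and there the ranges overlapped widely. In the tubule comparison given below, the group with the match was the higher one, with medians of -1.93 and -4.80 (from -5.04 to -1.12 and from -7.28 to 0.73). There FKBP9 and FKBP11 of the group without a match were listed at 0.

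The proximal tubule was compared with the male choroid plexus as another epithelium with high fluid transport. For the ratios, the mitochondrially encoded genes were removed from both libraries and the rest rescaled. The cytosolic members made up most of the folding transcripts in the tubule library and the ER members little, and the ratio of ER to cytosolic TPM was 0.0741 (0.0729 to 0.0753), against 0.719 in the male choroid plexus. In deposited TPM, the ER members summed to 247 and the cytosolic members to 3339, of which PPIA alone held 2043. Without PPIA and CALR the ratio was 0.185 in the tubule and 0.819 in the male library.

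Of the 42 members, 8 were listed at 0 in the tubule library, among them FKBP11 and FKBP9 of the ER, HSPB1, HSPB6, DNAJA4, FKBP1A and FKBP15 of the cytosol, and FKBP8 of the mitochondrion. By counting error alone, a count of 0 allows a share of up to 1.19e-05% of the library (3 counts), with the mitochondrially encoded genes included. As 33.5% of listed genes were at 0, and other ways to lose transcripts were not tested, this sets no limit on the level in the tissue. The 5540 genes that reached 0.5 TPM in both libraries had a median of -0.99, and relative to it 14 members were at least 2-fold lower (33.5% of all genes and 53.8% of listed genes above 0) and 11 were at least 2-fold higher (36% and 28.5%). Of the 34 members above 0, 41.2% were thus lower and 32.4% higher, so that fewer were lower than among listed genes and more than among all genes. By compartment, of the members above 0, 7 of 12 in the ER were lower (58.3%) and 1 was higher (8.33%). In the cytosol 6 of 18 were lower (33.3%) and 7 were higher (38.9%), and of 4 mitochondrial members 1 was lower and 3 were higher. The ER share of lower members was thus near the 53.8% of listed genes above 0. Without centring, 20 members were lower and 8 higher. Centred on the listed genes, whose median was -4.17, 3 were lower and 24 higher, so the counts turn with the scaling. That median takes in the listed genes at 0, whereas members at 0 were not called. No share of all or listed genes is given for these settings, so these counts are not a result about the members.

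**Figure D4:**
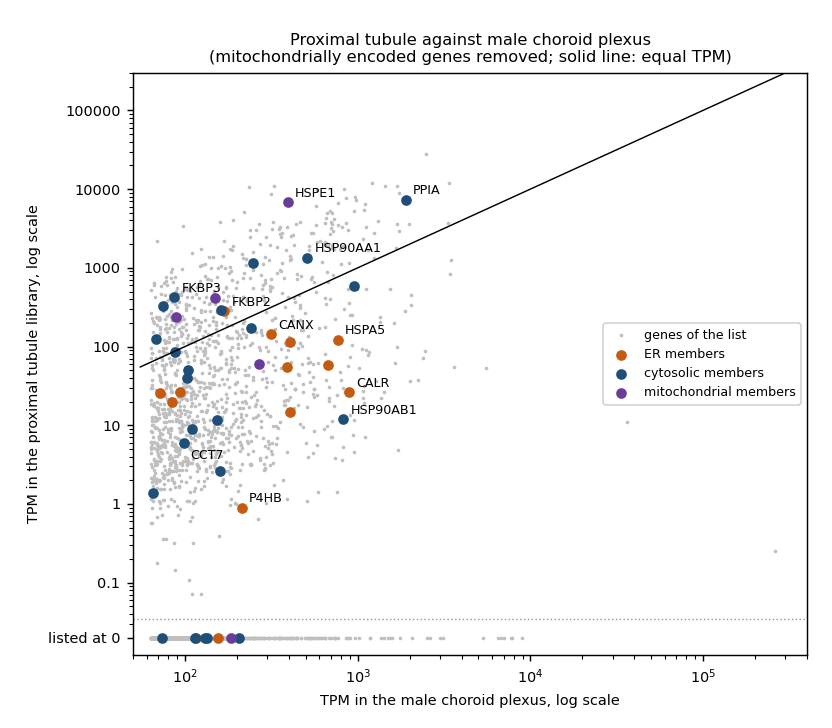
TPM without mitochondrially encoded genes in the proximal tubule library (y, log axis, genes listed at 0 below the dotted line) against the male choroid plexus (x, log axis) for the listed genes (grey) and the members (coloured by compartment), with a solid line at equal TPM. FKBP2 is the one ER member above the line, and members of the cytosol lie from 1.40 TPM (HSPA4L) to 7328 TPM (PPIA), besides those listed at 0.

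The ER members above 0 with lower TPM in the tubule ranged from P4HB to CANX. CANX was not called lower, as it lay at -0.13 relative to the median of all genes. P4HB had 0.897 TPM in the tubule and 214 TPM in the male library on this scale (log2 ratio -6.82, -7.52 to -6.21), CALR had 26.1 and 891 TPM (-5.04, -5.18 to -4.90), and HSPA5 had 122 and 766 TPM (-2.64, -2.70 to -2.59). CANX, with 143 and 313 TPM (-1.12, -1.16 to -1.09), and FKBP2, with 280 and 169 TPM (0.73, 0.61 to 0.85), were the ER genes that were nearest to or above the male level. The order of calreticulin and calnexin was thus the opposite in the tubule, where CALR to CANX was 0.182 (0.165 to 0.201).

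Paralogues within the cytosol also parted. HSP90AA1 had 1345 TPM in the tubule and 511 TPM in the male library (log2 ratio 1.39, 1.37 to 1.42), while HSP90AB1 had 12.0 and 825 TPM (-5.99, -6.16 to -5.82). The ratio of HSP90AB1 to HSP90AA1 was 1.61 in the male library (1.59 to 1.64), 1.68 in the female library (1.65 to 1.71), 2.31 after FACS (2.26 to 2.35) and 0.00891 for the tubule (0.00790 to 0.0100). DNAJA1 had 1153 and 248 TPM (2.21, 2.17 to 2.25), whereas DNAJA4 was listed at 0. FKBP3 had 425 and 86.6 TPM (2.28, 2.20 to 2.36), whereas FKBP1A and FKBP15 were listed at 0.

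The CCT subunits, which assemble into 1 complex, were more even in the choroid plexus than in the tubule library. TCP1, a further subunit, lies outside the naming rule and was counted with the co-chaperones of the cytosol. It had 86.5, 79.5 and 40.2 TPM in the male, female and FACS libraries. With the mitochondrially encoded genes removed, TCP1 had 153 TPM in the tubule and 94.4 TPM in the male library. In the male library the 7 subunits among the members went from 62.3 TPM (CCT6A) to 221 TPM (CCT2), a 3.54-fold spread, with 3.24-fold in the female and 2.71-fold in the FACS library. In the tubule they went from 1.66 TPM (CCT7, from 137 expected counts) to 92.4 TPM (CCT8, from 7749 expected counts), a 55.6-fold spread. CCT5 had 148, 127, 83.4 and 81.9 TPM in the male, female, FACS and tubule libraries, with 294 TPM in the tubule and 162 TPM in the male library once the mitochondrially encoded genes were removed. CCT4 had 80.4, 76.3, 51.1 and 23.5 deposited TPM, with 84.1 TPM in the tubule and 87.8 TPM in the male library on the rescaled values, so its place in the order turns with the scaling. CCT3 had 95.7, 82.0, 54.5 and 14.1 deposited TPM. The spread between subunits within a library does not depend on the rescaling. The subunit lowest in the tubule was not the lowest in any choroid plexus library.

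**Figure D5:**
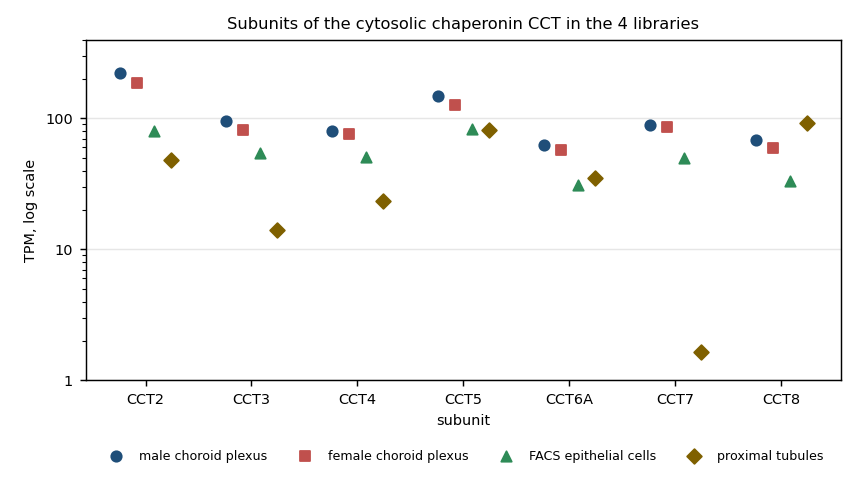
TPM on a log axis (y) of the CCT subunits among the members (x) in the 4 libraries. The choroid plexus libraries show the subunits within 3.54-fold of each other or less, and the proximal tubule library shows them spread 55.6-fold, from CCT7 to CCT8.

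The difference of the ER and cytosolic medians was -1.36 on the log2 scale, with members listed at 0 left in, but it depended on single members and on the measure. It was -0.29 with FKBP8 counted as cytosolic, -1.79 from expected counts and -3.28 from summed TPM. The high share of mitochondrial counts and the 33.5% of listed genes at 0 in this library go along with these values, and their part in the low values of P4HB, HSP90AB1, CCT7 and the members at 0 was not tested. Among the other lists, 8 of 15 further ER folding genes were listed at 0 in the tubule, ERP44 (2.29 above the median of all genes on the log2 scale) and SDF2 (1.14) being those at least 2-fold higher. The 18 genes of the translocon, signal peptidase and N-glycosylation had 1 at 0, 9 at least 2-fold lower and 5 at least 2-fold higher. The 8 mitochondrial import and exchange genes had 2 at 0, 2 lower and 2 higher by the same limit. Of 8 genes of the unfolded protein response and degradation, 3 were listed at 0 and 5 were at least 2-fold lower. Of 11 co-chaperones of the cytosol, 2 were listed at 0, 5 were at least 2-fold lower and 4 at least 2-fold higher, the highest being NACA with 2645 against 420 TPM. Beside these counts, 33.5% of all genes were at least 2-fold lower and 36% higher. Of listed genes above 0, 53.8% were lower and 28.5% higher.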

How the data were processed

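RNA was sequenced from 4 pooled rat libraries, 1 per condition. The authors aligned paired-end reads with STAR 2.7.2a to Rnor_6.0 and ran RSEM 1.3.3, and they deposited for each gene an expected count (an estimate that need not be whole), a TPM, an effective length and an FPKM, the last of which was not used here. The methods name trimming with Trimmomatic for the comparison between species, which included the male library, and for the other libraries trimming is not given in the sources used here, nor is strandedness. Gene names came from the supplementary lists, since 0 IDs were paired in the RefSeq table at hand. Expected counts summed to 28324976 (male), 25376480 (female), 23873318 (FACS) and 25130213 (proximal tubule).

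From the deposited TPM, log2 ratios with a pseudocount of 1 were computed for every gene (Python 3.11.15 with pandas 2.3.3, scipy 1.17.1, numpy 2.4.6, figures by matplotlib 3.10.9). A fold on this scale understates the change of low genes. Calls are at least 2-fold from the median of genes at or above 0.5 TPM in both libraries. Ratios of the proximal tubule were taken after removing 13 mitochondrially encoded genes from both libraries and rescaling. Intervals of ratios are exact (Clopper-Pearson, 95%) on expected counts rounded to whole numbers. The effective length stands for transcript length. With 1 library per condition, no test was run. The steps were tested on simulated data. Every member could be named, and of other lists the genes highest in the male library or past 2-fold. Other list genes, the gene pairs and the groups by motif were picked after their values were seen. The members, compartments and lists were chosen with earlier results of these data known.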

Additional observations from a re-analysis of the deposited data

How the results depend on the processing

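No paired analysis was possible because each condition has 1 library and the labels give no shared replicate numbers. Each value was recomputed under other settings, of which the comparison with listed genes of like effective length was chosen after seeing the data. For the FACS library, the ER minus cytosolic difference of 0.96 was 1.05 from summed TPM and 1.19 with the female library as the reference, and the count of 1 member at least 2-fold lower and 3 higher became 7 and 10 at 1.5-fold and 11 and 1 without centring. From scaled expected counts 2 were lower, and with the female reference 2 were lower and 5 higher. No share of all genes is given for the counts under other settings, here and for the proximal tubule. They describe the dependence on the setting only. For the female library, 0 members were called in any of these settings. For the proximal tubule, the difference of -1.36 was -1.79 from scaled expected counts, -0.29 with FKBP8 as a cytosolic member, -3.28 from summed TPM, -1.11 against the female library and -1.79 relative to genes of like length, and the counts of 14 lower and 11 higher were 3 and 24 when centred on the listed genes. The ratio of ER to cytosolic sums was, from expected counts, 0.9503 (male), 0.892 (female), 1.85 (FACS) and 0.141 (proximal tubule), without PPIA and CALR 0.819, 0.7999, 1.65 and 0.185, and with FKBP8 as a cytosolic member 0.699, 0.638 and 1.43 in the choroid plexus libraries. The cause of these shifts was not tested. In these settings the FACS ratio stayed the highest and that of the proximal tubule the lowest. The other 48 recomputed values kept their direction and stayed within counting error or, for counts, within 1.5 times. With 1 pool per condition, the depth gives the counting error alone, and the spread between animals is unknown.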
